A study of Mus musculus with 6 samples.

Results

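The 10 genes described here encode the subunits and regulators of the protein kinase complex and the lipid kinase complex that start autophagy, together with a pair of proteins that read the lipid they make. They were chosen by name: every array probe whose gene name is Ulk1, Ulk2, Rb1cc1, Atg13, Becn1, Atg14, Pik3c3, Ambra1, Wipi1 or Wipi2 was taken. This gave 16 probes of 10 genes, out of 55681 probes carrying 34821 names on the array. Expression was measured on 6 Agilent single-colour arrays of total RNA from mouse fetal liver erythroid progenitors, cells on the way to becoming red blood cells. The cells came from embryos at E-14.5 (embryonic day), received a retrovirus carrying a short hairpin RNA, and were cultured for 3 days in medium with erythropoietin, dexamethasone and kit ligand, during which they matured. The group shExosc8 (3 arrays) carried a hairpin against Exosc8, a subunit of the RNA exosome, which degrades and trims RNA, and the group shControl (3 arrays) one against luciferase, a gene that mouse cells lack. Both groups therefore shared infection, medium and time in culture. The sources used here give no mouse strain, do not say how many hairpin sequences were used and name no selection for infected cells. Whether the 3 replicates of a group were separate litters, animals or cultures is not in the labels; the p-values below reflect the spread between arrays, part or all of which may be technical.

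Autophagy delivers cytoplasm and organelles to the lysosome in a double membrane, and maturing red cells use it to clear mitochondria and other organelles. It starts with a protein kinase, ULK1 or its close relative ULK2, which acts in a complex with the scaffold FIP200 (the product of Rb1cc1), ATG13 and ATG101. AMPK activates this kinase under energy stress and mTORC1 inhibits it when nutrients are plentiful. The kinase turns on a lipid kinase complex in which VPS34 (Pik3c3) is the catalytic subunit, VPS15 (Pik3r4) its partner, Beclin 1 (Becn1) the scaffold and ATG14 the subunit that brings the complex to the site of autophagosome formation. AMBRA1 binds Beclin 1 and helps to link both complexes. The lipid made there, phosphatidylinositol 3-phosphate (PI3P), is bound by the WIPI proteins, which bring in the machinery for membrane growth.

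Each probe is 60 bases long. The first 30 bases of those on which the results turn are shown 5′ to 3′, because probes of 1 gene did not always give the same call. Positions are those of the whole probe in the files, on mouse build mm9.
Ulk1, chr5:111213514-111213573, minus strand: gtgagtctcccccttttgtgtttcactgtg
Rb1cc1 probe 1, chr1:6265434-6265493, plus strand: gaacaaagatattgaagtagctaggctagt
Rb1cc1 probe 2, chr1:6255674-6258809, plus strand: aagaaaacaagcggttaaatcaaagactga
Atg14, chr14:48160711-48160770, minus strand: ggctgctttacatggtcttacgtagaacca
Wipi1 probe 1, chr11:109436607-109436666, minus strand: atccacaactactaacatttaaatgtgcct
Wipi1 probe 2, chr11:109435140-109435199, minus strand: tgtcaggtggttttggagagaacgaggaaa
Wipi1 probe 3, chr11:109443686-109443745, minus strand: gtgtgcctccagcaacacggagaccgtgca
Wipi2 probe 1, chr5:143144828-143144887, plus strand: gtggagttcacgtctccctaaagcataggt
Wipi2 probe 2, chr5:143143197-143143256, plus strand: ttaactatttggtgaagtctgtggagtctc
Rb1cc1 probe 2 is placed over 3136 bases of the genome, more than its own length, so its bases come from separate blocks of the gene, whereas each of the others in this set lies in 1 block of 60 bases. Exon and UTR annotation of mm9 was not used here.

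Signals are given as scaled signal, the scanner's linear intensity after every array was brought to a common 75th percentile. Differences are log2 fold changes, shExosc8 minus shControl, with their standard error, and a probe is called at a Benjamini-Hochberg adjusted p under 0.05 from limma over all 24836 probes tested. The signal at the 75th percentile before scaling was 3318 to 5035 on the shExosc8 arrays and 6055 to 6250 on the shControl arrays. The share of spots well above background was 43.1% to 46.9% on shExosc8 arrays and 45.1% to 67.3% on shControl arrays, with the highest share on shControl replicate 2. All 6 arrays were on 1 slide, with the shExosc8 arrays in 1 row and the shControl arrays in another; an effect of the row and an effect of the hairpin cannot be told apart. Exosc8 itself fell by 1.14 ± 0.17 on the log2 scale (SE, n = 3 per group, adjusted p = 0.0061). Its signal was 40.4%, 40.0% and 57.4% of the control mean on shExosc8 replicates 1, 2 and 3, so the reduction was smallest on replicate 3.

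All 16 member probes passed the filter on dim probes, since each was well above background on all 6 arrays, and none was saturated. Of these, 6 were called, 4 higher (Ulk1, Rb1cc1 probe 2, Atg14 and Wipi2 probe 1) and 2 lower (Wipi1 probes 1 and 2). Among all probes tested, 27.8% were called, 14.7% higher and 13.1% lower, and the members' 6 of 16 is to be read against that share. The 2 groups of arrays did not overlap for 12 of the 16 member probes, against 50.5% of all probes. The median log2 fold change was 0.24 over the member probes and -0.08 over all probes tested. The probes of 1 gene share its RNA and are not independent of each other.

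**Figure D1:**
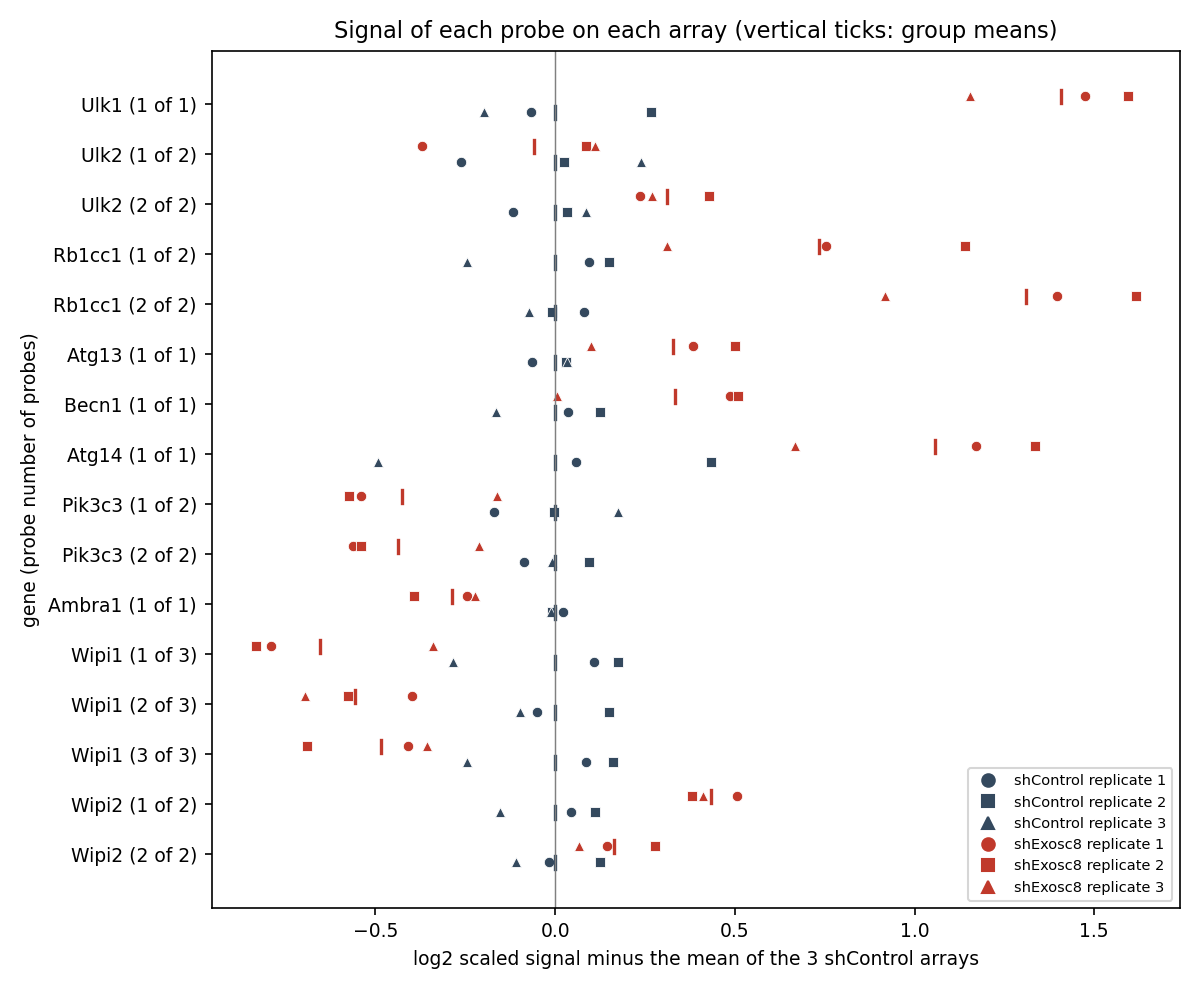
Signal of each of the 16 probes on each of the 6 arrays, as log2 scaled signal minus the mean of the 3 shControl arrays (horizontal axis). Red symbols are shExosc8 and dark symbols shControl, the symbol shape gives the replicate, and vertical ticks are group means. Ulk1, Rb1cc1 probe 2 and Atg14 lie farthest to the right, the 3 Wipi1 probes lie to the left, and shExosc8 replicate 3 is often the red symbol nearest to the controls.

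Within the protein kinase complex, Ulk1 and Rb1cc1 (by 1 of its 2 probes) rose, whereas the probes of Ulk2 and Atg13 were not called. The scaled signal of Ulk1, the kinase itself, was 45434, 49418 and 36408 on shExosc8 replicates 1 to 3 and 15610, 19691 and 14253 on shControl replicates 1 to 3. The lowest shExosc8 array was above the highest control. Ulk1 was 2.65-fold higher, a log2 fold change of 1.41 ± 0.18 (SE, n = 3 per group, 95% interval 0.98 to 1.84, adjusted p = 0.0040). It stayed called without any 1 of the 6 arrays, with log2 fold changes of 1.31 to 1.54 and adjusted p of 0.0029 to 0.0245. In the authors' deposited table the log2 fold change of this probe is 1.38 with an adjusted p of 0.0198.

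Ulk2, the paralog that can take the place of ULK1, was read by 2 probes. Its brighter probe gave 338, 386 and 346 on shExosc8 arrays and 264, 294 and 304 on shControl arrays. The groups did not overlap, but the difference of 0.31 ± 0.11 was not called (adjusted p = 0.0845). The other Ulk2 probe gave 76.6, 105.0 and 106.8 against 82.5, 100.6 and 116.8, with overlapping groups and a log2 fold change of -0.06 ± 0.19 (95% interval -0.53 to 0.41, adjusted p = 0.834).

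The 2 probes of Rb1cc1, which encodes the scaffold of the complex, moved the same way and differed in size. Probe 2 gave 753, 877 and 541 on shExosc8 arrays against 303, 284 and 272 on controls, with no overlap. It was 2.48-fold higher, at 1.31 ± 0.19 (adjusted p = 0.0062), and stayed called without any 1 array, at 1.16 to 1.51 with adjusted p of 0.0014 to 0.0320. Probe 1 gave 902, 1180.3 and 664 against 572, 594 and 451, also without overlap. Its difference of 0.73 ± 0.23 was not called with all 6 arrays (adjusted p = 0.0588) and was called without shExosc8 replicate 3 (0.95, adjusted p = 0.0139). Leaving out that array raised the calls over all 24836 probes from 6908 to 10730. The higher ones went from 3645 to 5047 and the lower from 3263 to 5683. The log2 ratio of probe 1 to probe 2 within an array differed by -0.57 ± 0.11 (SE) in shExosc8, with no overlap between the groups. This ratio was chosen after its values had been seen and is given as a description, without a test. In the authors' deposited table the log2 fold changes are 1.15 for probe 2 (adjusted p = 0.0212) and 0.57 for probe 1 (adjusted p = 0.322).

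Atg13, the regulatory subunit that joins the kinase to its scaffold, gave 6600.0, 7162 and 5424 on shExosc8 arrays and 4844, 5168 and 5177 on controls. The groups did not overlap, although shExosc8 replicate 3 was close to the controls, and the difference of 0.33 ± 0.13 was not called (adjusted p = 0.111). Without shExosc8 replicate 3 it was called, at 0.44 (adjusted p = 0.0203). Higher calls over all probes also rose without that array, from 3645 to 5047. Atg101, the remaining subunit, is no member of the chosen set. Its log2 fold change was -0.18 ± 0.13 and was not called (adjusted p = 0.315).

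Of the kinases and regulators upstream of ULK1, a list of 30 genes including Atg101, 27 could be tested by their brightest probe, and 6 were higher and 6 lower. That is 22.2% in each direction, against 15.6% higher and 12.7% lower among all 18228 names, and the list's median was -0.04 beside -0.06 over all names. The groups of arrays did not overlap for 16 of the 27, against 51.6% of all names. Without normalization between arrays 2 were higher and 10 lower, with a median of -0.54, with the percentile over all probes 5 and 8, and with normexp and the 75th percentile 7 and 4. Both beta subunits of AMPK rose: Prkab2 by a log2 fold change of 3.29 ± 0.25 (adjusted p = 8.5e-04) and Prkab1 by 0.53 ± 0.12 (adjusted p = 0.0252). Its catalytic subunit gene Prkaa1 fell by 0.68 ± 0.11 (adjusted p = 0.0091), and Stk11, which encodes the AMPK-activating kinase LKB1, fell by 0.43 ± 0.12 (adjusted p = 0.0403). The sestrins, stress-induced inhibitors of mTORC1 signalling, were also higher, Sesn2 by 1.75 ± 0.17 (adjusted p = 0.0020) and Sesn1 by 0.59 ± 0.13 (adjusted p = 0.0196). Mtor, the kinase that restrains ULK1, fell by 0.54 ± 0.10 (adjusted p = 0.0117), and so did Deptor, an inhibitor of mTOR, by 0.70 ± 0.20 (adjusted p = 0.0420). The calls for Prkab2, Sesn2 and Prkaa1 held without any 1 array. Those for Prkab1, Sesn1 and Stk11 held in 2 of 6 such fits, for Mtor in 4 and for Deptor in 1, with the highest adjusted p at 0.0962, 0.0768, 0.137, 0.0528 and 0.132.

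**Figure D2:**
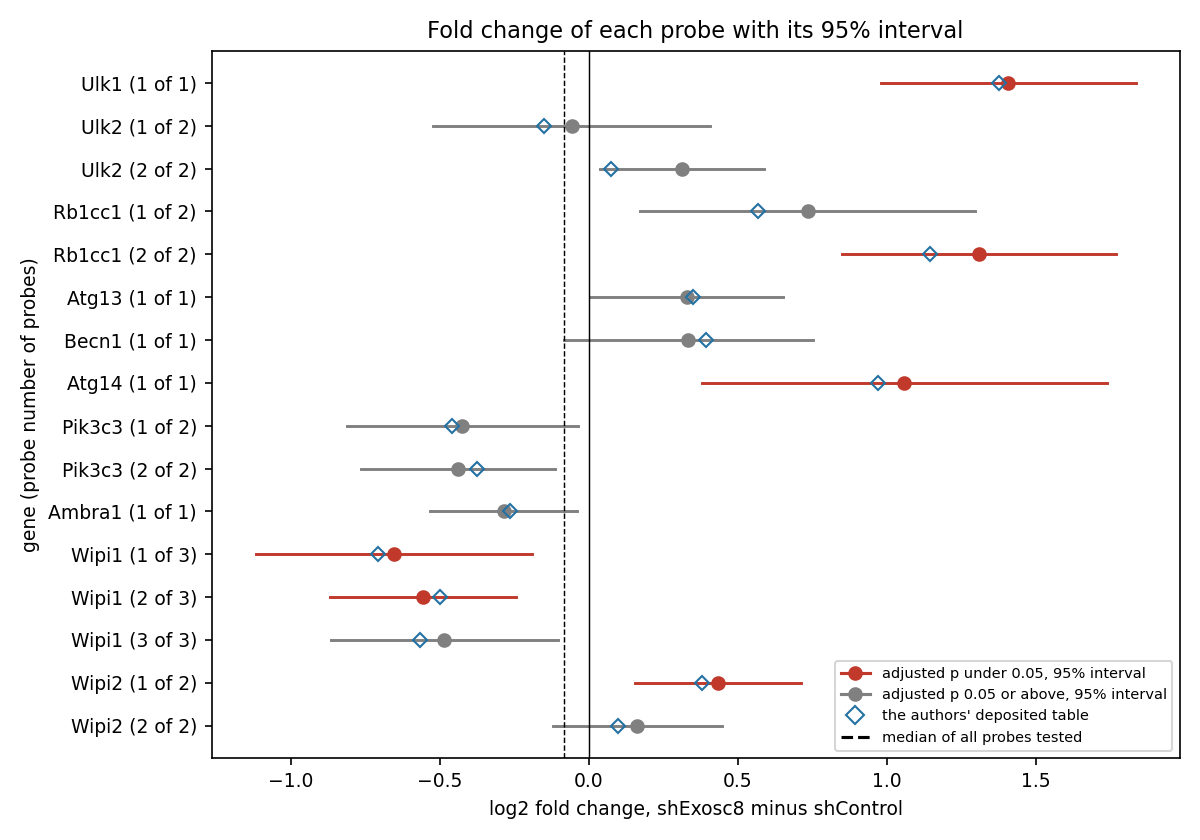
Log2 fold change of each probe, shExosc8 minus shControl, with its 95% interval (limma, 3 arrays per group). Red marks an adjusted p under 0.05, open diamonds are the authors' deposited fold changes and the dashed line is the median of all probes tested, -0.08. Of the 16 probes, 4 are called to the right and 2 to the left.

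Of the members in the lipid kinase complex only Atg14 was called, and it was higher. Atg14, the subunit that directs the complex to autophagosome formation, gave 3168, 3549.9 and 2233.5 on shExosc8 arrays and 1465, 1899 and 1000.4 on controls. The groups did not overlap, but the controls themselves ranged widely, with replicate 3 lowest. Atg14 was 2.08-fold higher, at 1.06 ± 0.28 (95% interval 0.38 to 1.74, adjusted p = 0.0366). The call was lost without shExosc8 replicate 1 or 2 or without shControl replicate 1 or 3, at log2 fold changes of 0.81 to 1.09 and adjusted p of 0.0846 to 0.115. It was also lost without normalization between arrays (0.56, adjusted p = 0.105), without the filter on dim probes (adjusted p = 0.154) and with the slide column block (0.76, adjusted p = 0.314). In the authors' deposited table its log2 fold change is 0.97 with an adjusted p of 0.162.

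Becn1, the scaffold that ATG14 binds, gave 4716, 4788 and 3380 on shExosc8 arrays and 3455, 3674 and 3007 on controls. The groups overlapped because shExosc8 replicate 3 lay among the controls, and the difference of 0.33 ± 0.17 was not called (adjusted p = 0.184). Without that array it was called, at 0.50 (adjusted p = 0.0260), where higher calls over all probes rose from 3645 to 5047.

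Pik3c3, the catalytic subunit, had lower values on both of its probes, neither of them called. Probe 2, the brighter, gave 883, 895 and 1124 on shExosc8 arrays against 1227, 1391 and 1294 on controls, without overlap, at -0.44 ± 0.13 (adjusted p = 0.0546). Probe 1 gave 552, 540.1 and 719 against 714, 801 and 907, and here shExosc8 replicate 3 passed the lowest control (-0.42 ± 0.16, adjusted p = 0.0913). Both were called where arrays were scaled by the percentile of all probes (-0.57, adjusted p = 0.0450 for probe 1; -0.58, adjusted p = 0.0260 for probe 2). They were also called without shExosc8 replicate 3, at -0.56 for probe 1 (adjusted p = 0.0237) and -0.55 for probe 2 (adjusted p = 0.0120). Lower calls over all probes rose as well, from 3263 to 6066 with that scaling and to 5683 without shExosc8 replicate 3. The positions of both Pik3c3 probes in the files overlap, so they read partly the same stretch.

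Ambra1, whose product links both complexes, gave 3693, 3331 and 3747 on shExosc8 arrays against 4440.1, 4344 and 4336 on controls. The groups did not overlap, and the difference of -0.29 ± 0.10 was not called (adjusted p = 0.0782). It was called without shExosc8 replicate 3, at -0.32 (adjusted p = 0.0492), and with the percentile of all probes, at -0.43 (adjusted p = 0.0366). In these settings lower calls over all probes rose from 3263 to 5683 and to 6066.

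Among 22 partners of the lipid kinase and regulators of Beclin 1, 19 could be tested, of which 5 were higher (26.3%) and 2 lower (10.5%), with a median of -0.07. Over all names 15.6% were higher and 12.7% lower, with a median of -0.06. The groups did not overlap for 10 of the 19, against 51.6% of all names. Higher and lower calls in the list were 5 and 5 with the percentile over all probes, 5 and 4 with either normexp setting, and 4 and 7 without normalization between arrays. The 2 that fell are subunits of the ATG14 complex: Nrbf2 fell by 0.87 ± 0.18 (adjusted p = 0.0161) and Pik3r4, which encodes VPS15, fell by 0.61 ± 0.16 (adjusted p = 0.0382). Those named as higher include Bcl2l1, which encodes the Beclin 1-binding survival protein BCL-XL, at 1.97 ± 0.24 (adjusted p = 0.0036). The mitochondrial receptors Bnip3, at 1.80 ± 0.34 (adjusted p = 0.0136), and Bnip3l, which is needed to clear mitochondria from reticulocytes, at 1.39 ± 0.20 (adjusted p = 0.0056), rose as well. Bnip3 had 3 probes tested, of which 2 were called, each higher. Vmp1, a membrane protein of autophagosome formation, was higher by 1.36 ± 0.11 (adjusted p = 0.0012). The calls for Bcl2l1, Bnip3l and Vmp1 held without any 1 array, for Bnip3 in 5 of 6 such fits (highest adjusted p 0.0538), for Nrbf2 in 3 (0.0652) and for Pik3r4 in 1 (0.113).

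The lipid-binding proteins Wipi1 and Wipi2, close paralogs, moved in opposite directions, except that Wipi2 was at -0.066 where arrays were not normalized to each other. Wipi1 had lower values on all 3 of its probes. Probe 2, the brightest, gave 1888, 1669 and 1536 on shExosc8 arrays and 2402, 2761 and 2326 on controls. Each shExosc8 array was below each control, and the signal was 67.9% of control, a log2 fold change of -0.56 ± 0.13 (adjusted p = 0.0250). Probe 1 gave 152, 147 and 208 against 284, 297 and 216, at -0.65 ± 0.19 (adjusted p = 0.0485), with shExosc8 replicate 3 just under shControl replicate 3. This call was lost with the replicate number as a block (adjusted p = 0.0882), with normexp and the 75th percentile (-0.36, adjusted p = 0.0898), without the filter on dim probes (adjusted p = 0.177) and with the slide column block (-0.73, adjusted p = 0.230). That of probe 2 was lost without the filter (adjusted p = 0.157) and with the slide column block (-0.69, adjusted p = 0.238). Probe 3 gave 409, 336 and 423 against 575, 606.5 and 457, at -0.49 ± 0.16, which was not called (adjusted p = 0.0632). Both Wipi1 calls were lost on leaving out any 1 array other than shExosc8 replicate 3: probe 2 at -0.64 to -0.48 (adjusted p 0.0507 to 0.0779) and probe 1 at -0.80 to -0.56 (adjusted p 0.0504 to 0.148). Probe 3 became called without shExosc8 replicate 3, at -0.55 (adjusted p = 0.0497), where lower calls over all probes rose from 3263 to 5683. In the authors' deposited table the log2 fold changes of probes 1 to 3 are -0.71, -0.50 and -0.57, with adjusted p of 0.153, 0.168 and 0.193.

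Wipi2, the paralog that recruits the ATG16L1 complex to the growing membrane, was higher by its probe 1. That probe gave 1951, 1787 and 1825 on shExosc8 arrays and 1414, 1482 and 1234 on controls. The groups were well apart, and the signal was 1.35-fold higher, at 0.43 ± 0.12 (adjusted p = 0.0369). With 1 array left out, the call held only without shExosc8 replicate 3 and was lost on leaving out any other, at 0.36 to 0.49 (adjusted p 0.0657 to 0.129). It was also lost with the percentile taken over all probes (0.29, adjusted p = 0.103), with the mean of both probes (0.30, adjusted p = 0.0798), with the replicate number as a block (adjusted p = 0.0563), without the filter on dim probes (adjusted p = 0.177) and with the slide column block (0.32, adjusted p = 0.496). In the authors' deposited table the log2 fold change of this probe is 0.38 with an adjusted p of 0.276. Probe 2 gave 1050.4, 1152 and 997 against 941, 1038 and 881, with overlapping groups, at 0.16 ± 0.12 (adjusted p = 0.320).

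Of 22 genes for PI3P effectors, PI3P phosphatases and membrane growth, 21 were tested, with 4 higher (19.0%), 5 lower (23.8%) and a median of -0.08. Over all names 15.6% were higher and 12.7% lower, with a median of -0.06. The groups did not overlap for 11 of the 21, against 51.6% of all names. Without normalization between arrays 1 was higher and 9 lower, and with normexp and the 75th percentile 3 were higher and 1 lower. Wdr45, the WIPI paralog also known as WIPI4, rose by 1.27 ± 0.12 (adjusted p = 0.0016). The PI3P phosphatases were split: Mtmr14, at 0.67 ± 0.17 (adjusted p = 0.0310), and Mtmr3, at 1.07 ± 0.31 (adjusted p = 0.0440), were higher, and Mtmr2 fell by 0.65 ± 0.10 (adjusted p = 0.0082). Epg5, a tether for fusion with the lysosome, was higher by 0.61 ± 0.11 (adjusted p = 0.0112). Snx7, a sorting nexin, fell by 0.95 ± 0.13 (adjusted p = 0.0058), and the FYVE-domain genes Wdfy3 and Zfyve26 fell by 0.63 ± 0.15 (adjusted p = 0.0243) and 0.62 ± 0.14 (adjusted p = 0.0222). Wdfy3 had 2 probes tested, of which 1 was called. The calls for Wdr45, Mtmr2 and Snx7 held without any 1 array, those for Epg5 in 4 of 6 such fits, for Wdfy3 in 2 and for Mtmr14, Mtmr3 and Zfyve26 in 1. The highest adjusted p was 0.0525 for Epg5, 0.0799 for Wdfy3, 0.0957 for Mtmr14, 0.137 for Mtmr3 and 0.0816 for Zfyve26.

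**Figure D3:**
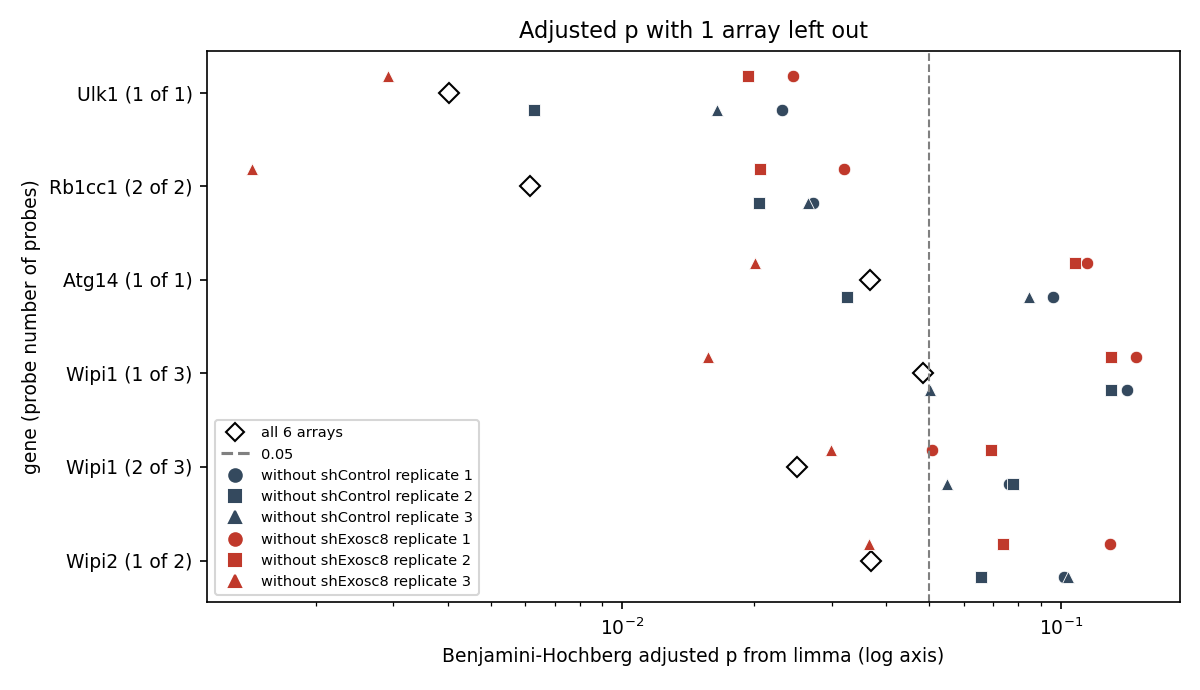
Adjusted p of the 6 called member probes (log axis) with all 6 arrays (open diamonds) and with 1 array left out (filled symbols, coloured by the group and shaped by the replicate left out). The dashed line is 0.05. Ulk1 and Rb1cc1 probe 2 stay to the left of it in all 6 fits, Atg14 in 2, and the Wipi1 and Wipi2 probes in 1.

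The scaling and background correction of the arrays moved the values. The median over all probes was -0.08 with the percentile taken over well-detected probes, -0.23 with it taken over all probes, -0.13 with the median as reference, -0.58 with no normalization between arrays, and 0.04 with normexp background correction and the 75th percentile. Higher calls were 52.8% of all calls in the first case and 35.4%, 45.6%, 16.6% and 67.8% in the others. Ratios of 2 genes on the same array do not depend on the reference that is subtracted, and 14 such pairs of paralogs or partners were compared by their brightest probes, along with 7 pairs of probes of the same gene. The pairs were chosen after their values had been seen, so their ratios are given as a description, without a test. The share of ratios that separate the groups was not computed over all pairs of genes, and 50.5% of single probes already do.

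The ratio of Ulk1 to its paralog Ulk2 was 2.14-fold higher in shExosc8, a log2 difference of 1.10 ± 0.19 (SE). With the dimmer Ulk2 probe it was higher by 1.47 ± 0.32. Ulk1 also gained by 1.08 ± 0.14 over Atg13, where the 3 shExosc8 arrays were at 1.09, 1.09 and 1.05 above the control mean, and by 1.59 ± 0.29 over Atg101. Against Rb1cc1 the ratio depended on the probe: it was higher by 0.67 ± 0.14 with the brighter probe 1, which was not called. With probe 2, which was called, the difference was 0.10 ± 0.16 and the groups overlapped, the shExosc8 arrays at 0.08, -0.02 and 0.24 and the shControl arrays at -0.15, 0.28 and -0.13. The ratio of Wipi1 to Wipi2 was 1.99-fold lower, at -0.99 ± 0.08, and that of Wipi1 to Wdr45 was 3.55-fold lower, at -1.83 ± 0.04. The shExosc8 arrays lay at -0.91, -0.96 and -1.11 for the first and at -1.76, -1.84 and -1.88 for the second. Over all 6 pairs of a Wipi1 and a Wipi2 probe the difference was -1.09 to -0.65, with no overlap between the groups. Wipi2 against Wdr45 was at -0.84 ± 0.05. These 3 ratios of the WIPI genes had the smallest standard errors among the 14 pairs. Within the lipid kinase complex, Atg14 gained over Becn1 by 0.72 ± 0.19, over Pik3c3 by 1.50 ± 0.40, over Uvrag, the subunit that replaces ATG14 in the endosomal form of the complex, by 1.50 ± 0.35, over Pik3r4 by 1.67 ± 0.47 and over Nrbf2 by 1.93 ± 0.50. Becn1 gained over Pik3c3 by 0.77 ± 0.29 and over Ambra1 by 0.62 ± 0.22, least on shExosc8 replicate 3, at 0.22 and 0.23. With the dimmer Pik3c3 probe, Becn1 over Pik3c3 was at 0.76 ± 0.34 and the groups overlapped.

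**Figure D4:**
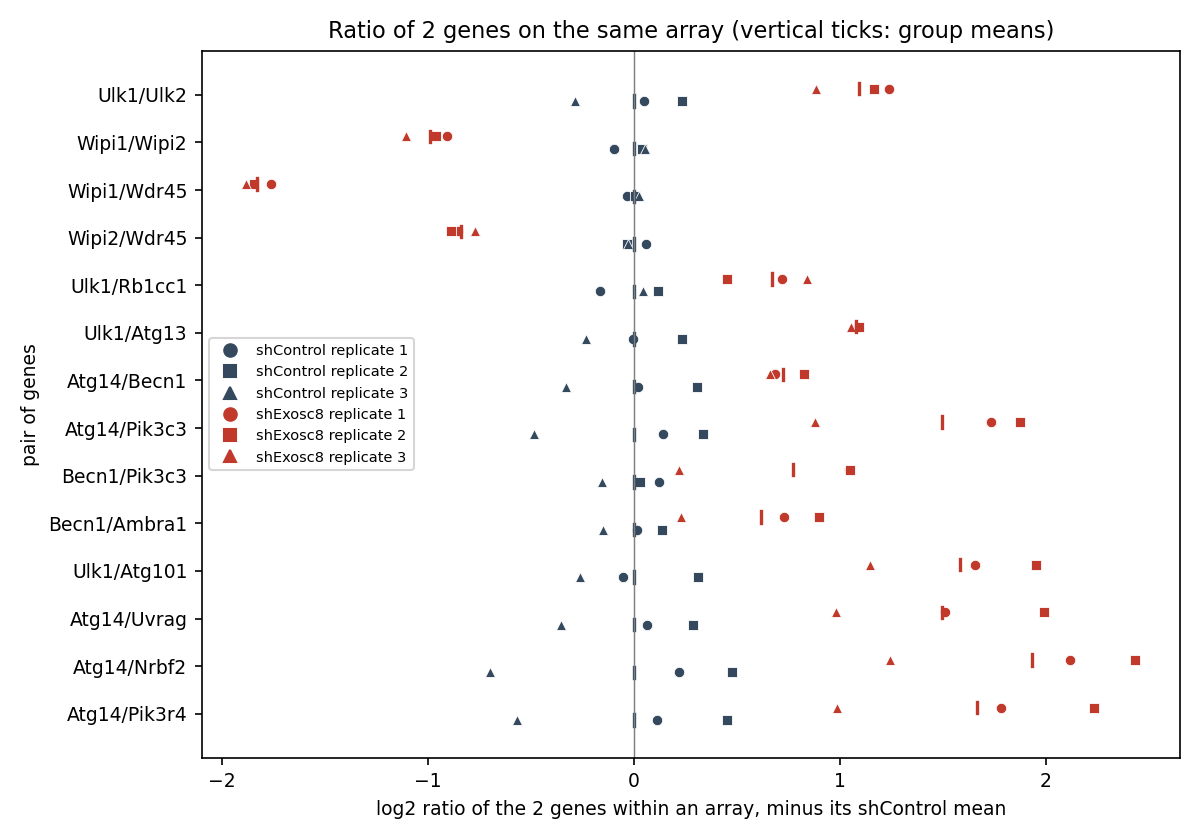
Log2 ratio of 2 genes on the same array, by their brightest probes, minus its mean over the 3 shControl arrays. Red symbols are shExosc8, dark symbols shControl, the shape gives the replicate and vertical ticks are group means. The Wipi1/Wdr45 and Wipi1/Wipi2 ratios lie to the left with little spread, and the ratios of Atg14 to Pik3c3, Uvrag, Nrbf2 and Pik3r4 lie to the right with a wide spread. Ulk1/Rb1cc1 is drawn with Rb1cc1 probe 1, and its groups overlapped with probe 2.

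Promoter sequences, from 250 bases before to 50 bases after the start of the gene, were taken for 7 of the 10 members from a RefSeq table on build GRCm38.p6. Those of Rb1cc1, Becn1 and Pik3c3 were not examined. The 7 windows were searched on both strands for 5 motifs. GGGCGG is the GC box bound by SP and KLF factors. CACGTG is the E-box bound by TFEB and MYC. GTAAACA is a site of FOXO factors. AGATAA is a form of the GATA site, and TGATAA is the other form searched. None of these motifs contains another of them. The GC box was found in 5 of the 7 windows, and in 35.7% of the 32851 windows of the table. Ulk1 had 5 matches, a number reached by 2.71% of windows, and Wipi1 had 9, a number reached by 0.125%. Wipi2 and Atg14 had 2 each and Ulk2 had 1, and Atg13 and Ambra1 had none. The E-box was found in Atg14 alone among the 7, beginning 1 base before the start, and in 7.15% of all windows. The GATA and FOXO letters were in none of the 7 windows, and in 11.2% (AGATAA), 9.05% (TGATAA) and 3.65% (GTAAACA) of all windows. Binding was not measured, and a match describes the letters only. The promoters of the member with the largest rise, of the member that fell and of the 1 with an E-box are shown from 250 bases before to 30 bases after the start, on the gene's strand, with GC boxes and the E-box of either strand in capitals.
Ulk1, chr5:110810052-110810331, minus strand: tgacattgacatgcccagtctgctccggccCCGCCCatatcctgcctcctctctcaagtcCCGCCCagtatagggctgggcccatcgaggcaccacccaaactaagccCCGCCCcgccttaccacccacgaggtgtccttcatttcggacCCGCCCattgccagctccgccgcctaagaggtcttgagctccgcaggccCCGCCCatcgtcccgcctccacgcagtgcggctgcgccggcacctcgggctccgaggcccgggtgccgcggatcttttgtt
Wipi1, chr11:109611360-109611639, minus strand: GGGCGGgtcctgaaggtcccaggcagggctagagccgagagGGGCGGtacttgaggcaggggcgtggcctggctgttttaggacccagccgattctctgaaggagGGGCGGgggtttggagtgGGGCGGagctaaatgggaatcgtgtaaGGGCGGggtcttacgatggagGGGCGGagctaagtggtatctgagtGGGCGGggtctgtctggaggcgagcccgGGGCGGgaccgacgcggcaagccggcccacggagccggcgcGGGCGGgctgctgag
Atg14, chr14:47568405-47568684, minus strand: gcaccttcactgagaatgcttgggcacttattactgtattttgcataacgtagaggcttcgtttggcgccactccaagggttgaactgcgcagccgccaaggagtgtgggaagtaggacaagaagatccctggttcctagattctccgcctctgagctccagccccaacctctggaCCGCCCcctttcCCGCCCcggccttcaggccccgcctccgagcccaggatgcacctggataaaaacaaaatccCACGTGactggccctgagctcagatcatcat
All 5 boxes of Ulk1 read CCGCCC on the gene's strand and all 9 of Wipi1 read GGGCGG.

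The steps that follow these complexes, conjugation of the Atg8 proteins to the membrane and capture of cargo, formed the list with the highest share of higher calls. Like the other lists, it was chosen with earlier results of these data known, so its share is a description. Of 21 genes, 20 were tested, and 11 were higher (55.0%) and none lower, with a median of 0.72. Over all names 15.6% were higher and 12.7% lower. The groups did not overlap for 14 of the 20, against 51.6% of all names. The 11 were Map1lc3a, Map1lc3b, Gabarap, Gabarapl1 and Gabarapl2 (Atg8 genes), Sqstm1, Nbr1, Optn, Calcoco1 and Tax1bp1 (cargo receptors), and Atg16l2. The other conjugation genes tested, Atg3, Atg4b, Atg4c, Atg4d, Atg5, Atg7, Atg10, Atg12 and Atg16l1, were not called. The cargo receptors Sqstm1, which encodes p62, at 2.46 ± 0.14 (adjusted p = 4.5e-04), Tax1bp1, at 1.55 ± 0.18 (adjusted p = 0.0031), Calcoco1, at 1.50 ± 0.15 (adjusted p = 0.0020), and Optn, at 1.34 ± 0.17 (adjusted p = 0.0042), were called with all 6 arrays and without any 1 of them. With the percentile over all probes or median centring, 11 genes of this list were higher and 2 lower, and without normalization between arrays 6 were higher and 3 lower. Gabarap, an Atg8 gene among the 11, had 3 probes tested, of which 2 were called higher and 1 lower. Of the 2 Atg16l2 probes tested, 1 was called.

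Of 18 transcription factors known to act on autophagy genes, 17 were tested, and 4 were higher (23.5%) and 2 lower (11.8%), with a median of 0.06. Over all names 15.6% were higher and 12.7% lower, with a median of -0.06. The groups did not overlap for 10 of the 17, against 51.6% of all names. With the percentile over all probes 3 were higher and 3 lower, without normalization between arrays 3 and 5, and with normexp and the 75th percentile 4 and 1. The stress-response factors Ddit3 (CHOP), at 2.55 ± 0.21 (adjusted p = 0.0010), Atf4, at 0.73 ± 0.22 (adjusted p = 0.0489), and Cebpb, at 1.69 ± 0.34 (adjusted p = 0.0157), were higher, as was Foxo3, at 1.38 ± 0.40 (adjusted p = 0.0466). Foxo3 had 2 probes tested, of which 1 was called. Tfeb, which drives lysosome and autophagy genes, fell by 1.06 ± 0.20 (adjusted p = 0.0134), and Trp53 fell by 0.93 ± 0.13 (adjusted p = 0.0059). The calls for Ddit3 and Trp53 held without any 1 array, for Tfeb in 5 of 6 such fits (highest adjusted p 0.0558), for Cebpb in 3 (0.0602), and for Foxo3 (0.141) and Atf4 (0.128) in 1. Across all lists, the named calls of Deptor, Mtmr3, Zfyve26 and Foxo3 were lost with both normexp settings, those of Snx7, Wdfy3 and Tfeb with normexp and the 75th percentile, and that of Atf4 with the percentile over all probes. Without normalization between arrays, Prkab1, Sesn1, Epg5, Mtmr14, Mtmr3 and Atf4 were not called, at log2 fold changes that stayed above 0.

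**Figure D5:**
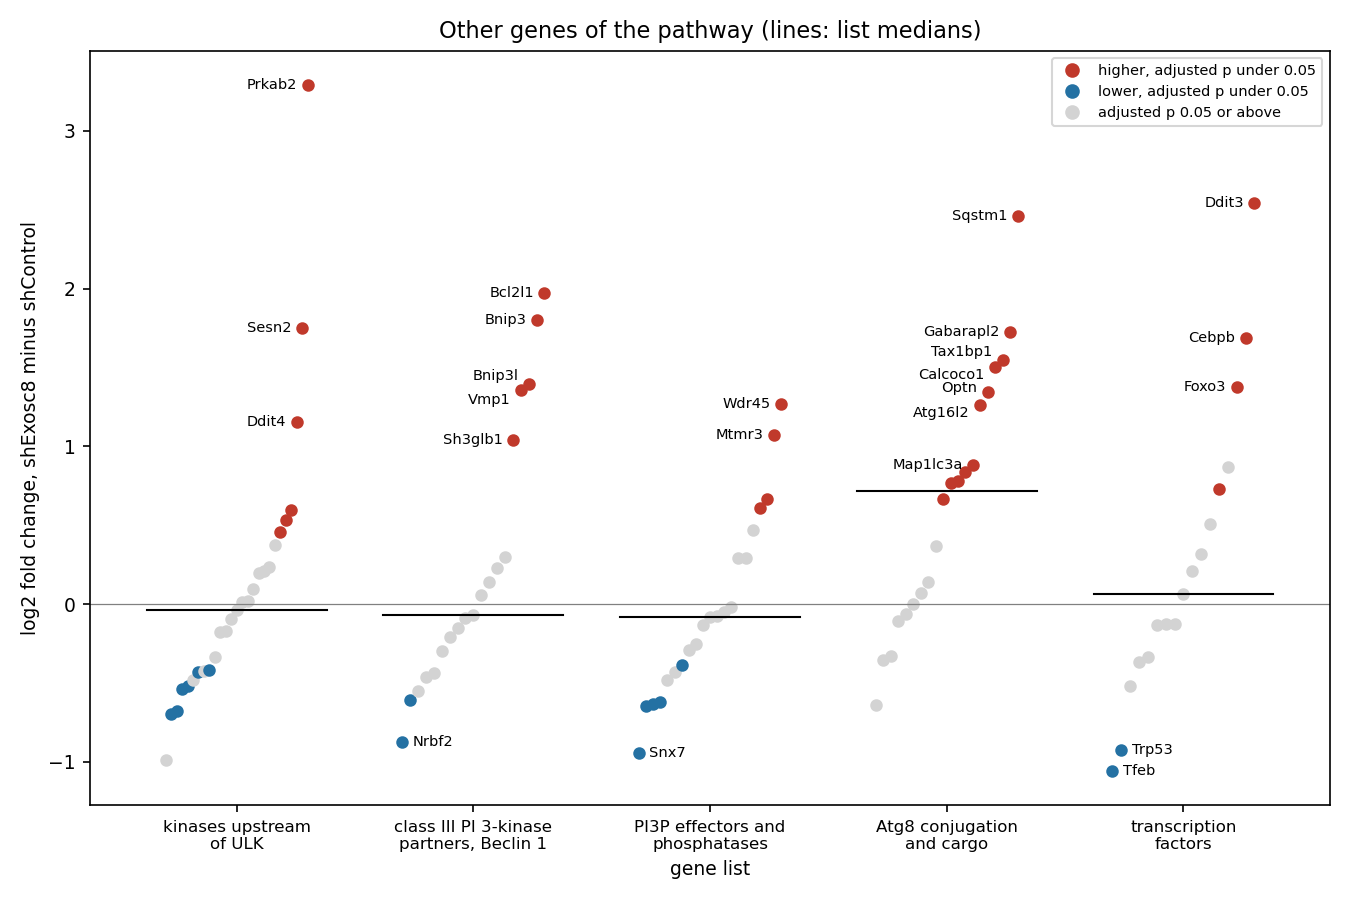
Log2 fold change of the other genes of the pathway by list, each gene by its brightest probe, ordered within a list, with the list median as a line. Red is higher and blue lower at an adjusted p under 0.05, grey is not called, and called genes with larger changes are named. The medians lie between -0.08 and 0.06 except in the Atg8 conjugation and cargo list, at 0.72.

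The names with the array profile nearest to that of Ulk1, by root mean square distance of centred log2 values over 6 arrays, were Fzr1 (0.049), Dennd4a (0.051) and Fam126a (0.057). Their log2 fold changes were 1.39, 1.33 and 1.39. For Wipi1 probe 2 they were Maoa (0.027), Thap7 (0.035) and Pcyt1a (0.046), with log2 fold changes of -0.59, -0.62 and -0.58. The names were picked by their values on these same arrays, so fold changes near those of Ulk1 and Wipi1 follow from the choice.

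Markers of several cell types were also called between the groups of arrays, all of them higher except the erythroid marker Epor. Other markers were not called or not tested. All 13 erythroid markers on the array were above background on all 6 arrays, and their summed scaled signal was 1716155 to 2063685 on controls and 2340954 to 3664951 on shExosc8 arrays, with 5 called higher and 1 lower. Such sums are of linear signal, so the brightest markers weigh most. Hba-a1 (672500 to 718229 and 763712 to 1281961) and Hbb-bt (537786 to 645953 and 596612 to 1015413) were not called (adjusted p = 0.138 and 0.202). Over all names, by their brightest probe, 15.6% were called higher and 12.7% lower. Megakaryocyte markers were called higher in 10 of 10, and their sum was 32740 to 47482 on controls and 310007 to 421224 on shExosc8 arrays. Pf4 alone was at 19967 to 29106 on controls and 204571 to 285100 on shExosc8 arrays. All 11 neutrophil and monocyte markers on the array were called higher, with sums of 65937 to 81920 on controls and 237198 to 319642 on shExosc8 arrays. Macrophage markers were called higher in 6 of 12 (3395 to 4357 on controls, 10472 to 12166 on shExosc8 arrays, Vcam1 above background on no array), mast cell and basophil markers in 4 of 8 (4719 to 6817 and 14260 to 23244, Fcer1a and Ms4a2 on no array) and hepatocyte markers in 3 of 10 (2339 to 2740 and 3485 to 4702, Fgg on no array). The totals of 12, 8 and 10 include markers whose probe did not pass the filter on dim probes and was not tested. These were Mrc1, Vcam1, C1qa and C1qc (macrophage), Fcer1a, Ms4a2 and Mcpt8 (mast cell and basophil), and Alb, Apoa1, Ttr and Fgg (hepatocyte). Most of the hepatocyte sum on controls was Apoa2, at 1690 to 1828 there and 1895 to 2050 on shExosc8 arrays, which was not called (adjusted p = 0.239). The part of these cell types in the values of Ulk1, Rb1cc1, Atg14, Wipi1 and Wipi2 was not tested. In RNA from whole cultures, more cells of a type and more RNA per cell cannot be told apart.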

How the data were processed

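The deposited intensity values come, per the file headers, from Agilent Feature Extraction 10.7.3.1, with background subtracted, and the same software set the flags used here. The deposited table of the series holds the same intensities, with the authors' log2 fold changes and p-values from limma, per the submitters' processing notes; how arrays were normalized for these is not given in the sources. Probe coordinates are on mm9, per the file headers.

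Control spots (3671 of 62976 features) and flagged outlier spots were left out, and spots of 1 probe were averaged. Names of 27495 of 55660 usable probes came from RefSeq (GRCm38.p6) by accession, 3549 others had a symbol there, and for 24616 the file's own name was used. The log2 signal was scaled by each array's 75th percentile over the 21615 probes well above background on all 6 arrays. The 24836 probes that were well above background on every array of 1 or both groups were tested with limma 3.58.1 in R 4.3.3 (lmFit and eBayes, two-sided, 3 arrays against 3, Benjamini-Hochberg over all probes), with a threshold of 0.05. The number of arrays limits the precision. In pathway lists the brightest probe stood for each of 18228 names. Simulated data for this comparison, with 24836 probes, held 100 probes changed by 1 on the log2 scale and 100 changed by 0.5. Of these, 24 of the former and 0 of the latter were called, along with 1 unchanged probe. A Benjamini-Hochberg cut-off depends on the share of changed probes, and in the real data 27.8% of probes were called. The simulated rates therefore do not give the sensitivity of the real comparison, where Wipi2 probe 1 was called at 0.43.

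The members, lists and alternatives were chosen with earlier results of these data known. Named were all members with every probe, the 4 genes of each list with the smallest p in each direction among those called, Exosc8, and the 3 names nearest in profile to Ulk1 and to Wipi1. Atg101, Uvrag and the cell markers are named beside them. The alternatives were other scalings and background corrections, other filters, 1 probe per name or the mean of its probes, blocks for replicate number and slide column, and leaving out arrays.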

Additional observations from a re-analysis of the deposited data

How the results depend on the processing

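Ulk1 and Rb1cc1 probe 2 kept their direction in all alternatives run and were called in all but the slide column block, which leaves 1 residual degree of freedom (Ulk1 1.27, adjusted p = 0.123; Rb1cc1 probe 2 1.23, adjusted p = 0.114). Without normalization between arrays the sign turned for Atg13 (-0.17), Becn1 (-0.17), the brighter Ulk2 probe (-0.19) and both Wipi2 probes (-0.066 and -0.34). The dimmer Ulk2 probe was at 0.16 with normexp and the 75th percentile, 0.22 with the slide column block, 0.10 without shExosc8 replicate 1 and 0.06 without shControl replicate 3.

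The 4 higher member calls became 2 without normalization, 2 without the filter on dim probes, 0 with the slide column block, and 7 without both shExosc8 replicate 3 and shControl replicate 2, an alternative chosen after seeing the data. Over all 24836 probes the higher calls, 3645, became 2077 without normalization, 379 with the slide column block and 5053 without both of these arrays. Without the filter they were 1426 of 55660. The 2 lower calls became 6 with the percentile over all probes, 4 with median centring, 6 without normalization, 1 with normexp and the 75th percentile, 0 without the filter, 1 with 1 probe per name, 1 with the mean of probes, and 0 with the slide column block. Over all probes the lower calls, 3263, became 6066 with the percentile over all probes, 4241 with median centring and 10457 without normalization. They were 1951 with normexp and the 75th percentile, 282 of 55660 without the filter and 29 with the slide column block. Of 18228 names, 2516 were lower with 1 probe per name and 2629 with the mean of probes. Leaving out 1 array gave 2 to 7 higher and 0 to 6 lower. Over all probes it gave 1989 to 5047 higher and 873 to 5683 lower. Calls over all probes, 6908, were 12534 without normalization, 1708 without the filter, 408 with the slide column block and 2862 to 10730 with 1 array left out (10730 without shExosc8 replicate 3).

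Called genes of the ULK list, 12, became 2 without the filter and 1 with the slide column block; of the lipid kinase list, 7, became 11 without normalization, 3 and 0; of the PI3P list, 9, became 4 with normexp and the 75th percentile, 1 and 0; of the Atg8 list, 11, became 5 and 1; of the transcription factor list, 6, became 1 and 1. With 1 array left out they were 3 to 13, 3 to 11, 3 to 12, 5 to 12 and 2 to 10. The cause of these changes was not tested.

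With the replicate number as a block there were 9 transcription factor calls, 4 higher member calls and 1 lower, and 7101 calls over all probes. The calls of Wipi1 probe 1 and Wipi2 probe 1 were lost, and that of Rb1cc1 probe 1 was gained. Deviations from the group mean correlated at 0.05, 0.21 and 0.28 for arrays sharing the numbers 1, 2 and 3. For arrays of the 2 groups with different numbers the correlations were -0.25 to 0.13. The labels do not say that the numbers pair the samples, so the block was run as an alternative only. Whether the numbers pair the samples was not tested.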
